A study of Bos taurus with 2 samples.

Results

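Cycling neural progenitor cells of the day 25 bovine embryo are described here: cells that carried RNA of the neural transcription factors SOX2 or PAX6, little neuronal RNA, and RNA of several genes used in cell division. A cell was taken as cycling when it had 500 or more detected genes, at least 1 UMI (a tag that counts 1 captured RNA molecule) of SOX2 or PAX6, fewer than 3 of the 5 neuronal genes TUBB3, DCX, ELAVL3, ELAVL4 and STMN2, and at least 3 of the 8 cycle genes MKI67, CDK1, KIF11, CENPF, ASPM, KIF18B, CDCA2 and AURKB. This gave 720 of the 4437 cells, 319 in replicate 1 and 401 in replicate 2. They were set against the 737 cells of the same gate with none of the 8 genes (303 and 434), called non-cycling progenitors below. That name says only that none of the 8 genes was detected, and the set may hold cycling cells. The 823 cells with 1 or 2 of the genes (372 and 451) lie between, and all 3 sets add up to 2280 gated cells.

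Both samples belong to 1 group: embryos flushed at day 25 of development, chimeras between the host and bovine embryonic stem cells. The tissue was cut up and dissociated with papain and DNase, and the cells were filtered, sorted and captured in droplets with 10x Genomics 3' chemistry. What the sort selected, how many embryos were used and what share of cells came from the stem cells is not stated, and nothing says that the replicates were separate embryos. Every comparison is therefore between cells of the same suspensions. Its p-values measure how evenly a difference between sets of cells repeats in these 2 samples only, with spread borrowed across genes. That spread may be technical.

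Neural progenitors line the neural tube and divide at its inner surface before they give rise to neurons. A dividing cell copies its DNA in S phase with the replication machinery, then makes cyclin B and mitotic kinases, condenses its chromosomes, attaches them to the spindle through kinetochores and splits. RNA of S phase genes peaks earlier in the cycle than RNA of mitotic genes, and most of these genes fall silent in a neuron. In fetal brain, many genes of this machinery are known for mutations that cause microcephaly, a brain that is too small.

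The libraries held 11182089 and 15427708 UMIs in 1973 and 2464 cells. No deposited cell had over 3999 detected genes, so cells with more are not analysed here. The libraries shared 6 barcodes, none of which was a cycling progenitor in both. Cycling progenitors were deeper than non-cycling ones: their median was 5710 and 6011 UMIs per cell, against 4809 and 5408 in non-cycling progenitors. Their median share of ribosomal protein RNA was 2.89% and 3.30%, against 4.55% and 7.04% in non-cycling progenitors. Median mitochondrial RNA was 0.324% and 0.347% in cycling and 0.301% and 0.283% in non-cycling progenitors. Deeper cells pass a rule of detected genes more often. For the genes described, each call that was lost is therefore named below when it was lost in cells thinned to 2000 UMIs, within 1 class of ribosomal RNA share, or without 1 of the 4 sums, with the log2 fold change of that setting in brackets.

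The cells carried the neural progenitor markers of their label in part. Of 9 such markers in the table besides SOX2 and PAX6, the intermediate filament gene NES stood highest, at 764 and 746 CPM (counts per 1000000 UMIs of the summed cells) in cycling progenitors and 827 and 862 CPM in non-cycling progenitors. SOX1, PAX3, HES5, MSI1, FABP7 and NKX6-1 were present, DBX1 was listed at 0 in both sets, and OLIG2 had 1 UMI in each cycling sum. The 9 markers summed to 1206 and 1259 CPM in cycling progenitors and 1325 and 1236 CPM in non-cycling progenitors, against 757 and 601 CPM in cycling cells with neither SOX2 nor PAX6. The 5 neuronal genes summed to 260 CPM in both cycling sums and to 290 and 308 CPM in the non-cycling ones. Non-cycling cells with 3 or more of them held 3649 and 4135 CPM. That gap is fixed by construction, since the rule asks for fewer than 3 of these genes in both sets. Not every cell was SOX2-positive: 65 of 319 and 59 of 401 had PAX6 alone. Markers of other cell types (3 or more of a fixed list, or 1% globin RNA) were found in 24 and 44 cycling progenitors (7.52% and 10.97%) and in 34 and 53 non-cycling ones (11.2% and 12.2%).

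The cells were selected on the detection of these genes, so the values of the 8 cycle genes are described without a test. CENPF, a kinetochore protein gene, was the most abundant of them at 960 and 1062 CPM and was found in 90.3% and 86.0% of cycling progenitors. ASPM, a spindle pole gene known for microcephaly, followed with 320 and 299.9 CPM, and MKI67, which encodes the Ki-67 coat of mitotic chromosomes, with 251 and 269 CPM. CDCA2, a phosphatase targeting subunit, had 209.96 and 216 CPM, KIF11, the kinesin that pushes spindle poles apart, 152 and 169.5 CPM, and CDK1, the central mitotic kinase, 144 and 134 CPM. KIF18B, a kinesin of microtubule ends, and AURKB, the kinase of the chromosomal passenger complex, were rarest, in 32.0% and 31.2% and in 25.1% and 27.4% of the cells. All 8 are 0 in non-cycling progenitors by construction. Only 8 and 17 cycling cells had neither CENPF nor MKI67.

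SOX2 and PAX6, which also chose the cells, did not run together. SOX2 stood at 336 and 342 CPM in cycling progenitors and at 382 and 374 CPM in non-cycling progenitors. PAX6 stood at 231 and 198 CPM in cycling progenitors and at 138 and 90.7 CPM in non-cycling progenitors. It was detected in 64.9% and 63.1% of cycling cells, against 45.5% and 34.1% of non-cycling cells. Among the neuronal genes, ELAVL3 was also the higher one in cycling progenitors (79.8 and 81.6 CPM, against 49.5 and 33.7 CPM in non-cycling progenitors), while STMN2 was lower there (86.5 and 82.0 CPM, against 114 and 147 CPM in non-cycling progenitors).

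Cells with more of the 8 genes carried more of the remaining mitotic RNA, without a step at the threshold of 3. The threshold cut a graded series: 96 and 109 members had exactly 3 genes, and 139 and 150 cells just outside had 2. A set of 81 mitotic genes outside the rule summed to 1929 and 1547 CPM in cells with none of the 8, 4444 and 4377 CPM with 2, 7014 and 7627 CPM with 3, and 16285 and 17514 CPM with 7. The 41 S phase genes took another course. They summed to 2211 and 2047 CPM with none, 4217 and 4497 CPM with 3 and 5179 and 4669 CPM with 4, and then to 4264 and 3937 CPM with 7. TOP2A, the topoisomerase that untangles sister chromatids, had 30.7 and 24.8 CPM with none, 299 and 353 CPM with 3 and 872 and 997 CPM with 7.

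**Figure D1:**
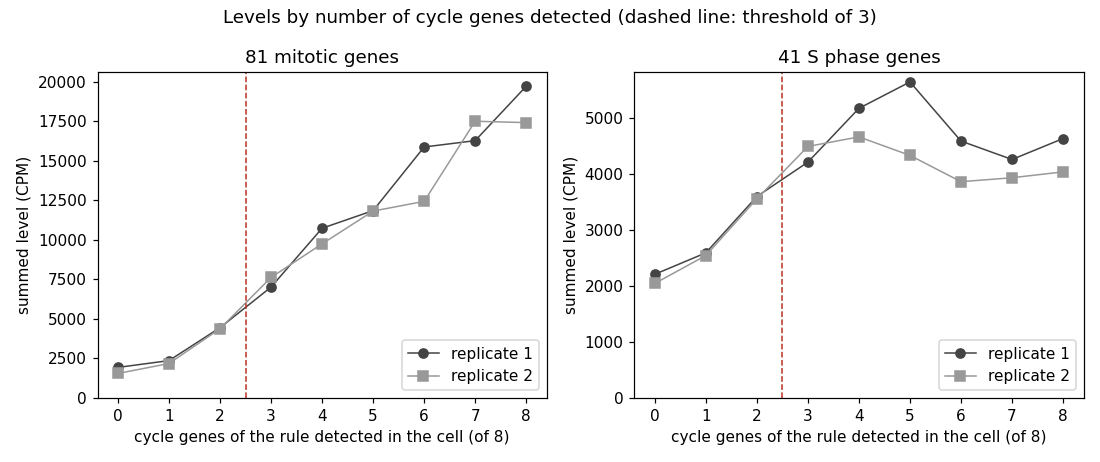
Summed level in CPM of 81 mitotic genes (left) and 41 S phase genes (right), none of them in the rule, against the number of rule genes detected in the cell, 1 line per replicate; the dashed line marks the threshold of 3. Mitotic RNA climbs from 0 to 7 genes, while S phase RNA is highest at 4 or 5 genes; the last point rests on 4 and 5 cells.

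Nearly all cycling progenitors carried both kinds of RNA. With each cell thinned to 2000 UMIs, 95.1% and 93.5% of them had 3 or more UMIs of both the S phase and the mitotic genes, against 52.9% and 38.2% of non-cycling progenitors and 17.3% and 12.5% of neuronal cells with none of the 8 genes. Their mean was 9.91 and 9.20 S phase UMIs and 24.0 and 23.8 mitotic UMIs per cell, against 4.81 and 4.10 S phase UMIs and 4.43 and 3.69 mitotic UMIs in non-cycling progenitors. Only 3 and 0 cycling cells had S phase RNA alone, against 44 and 86 non-cycling cells (17.0% and 22.8%). The rule asks for 3 of the 8 cycle genes and thus took few cells with S phase RNA alone. More such cells stood among the non-cycling progenitors. However, neuronal cells with none of the 8 genes had S phase RNA alone in 13.3% and 15.1%, not far under the non-cycling shares. The neuronal shares are given as the level to be read as background. The share of non-cycling progenitors with both kinds of RNA stood above that level in both replicates. How many of them were cycling was not tested. Where the S phase and mitotic UMIs of neuronal cells came from was not tested.

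Cycling cells made up 32.1% (29.2 to 35.1) of gated cells in replicate 1 and 31.2% (28.7 to 33.8) in replicate 2, with exact 95% binomial intervals that cover counting error only. In the shares and tests below, thinning left out cells under 2000 UMIs and applied the whole rule anew, so cells could change sets. Of the cells gated in this way, 115 of 710 and 147 of 885 met the rule (16.2% and 16.6%). Among cells with 3 or more neuronal genes, which serve as background, 15.1% and 16.4% had 3 of the 8 genes, and 4.67% and 3.45% after thinning. Within the gate the share went with PAX6. It was 39.4% and 46.4% among cells with both SOX2 and PAX6 and 36.3% and 32.6% among cells with PAX6 alone, against 24.6% and 21.5% among cells with SOX2 alone. After thinning, the shares were 20.4% and 24.5% with both genes, 22.1% and 21.3% with PAX6 alone and 11.9% and 13.2% with SOX2 alone.

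The share was lowest in cells with all 5 neuronal genes. Among SOX2 or PAX6 cells it was 28.4% and 29.8% with no neuronal gene detected, 34.0% and 34.0% with 2, 27.4% and 24.4% with 4, and 6.76% and 3.41% with all 5 (5 of 74 and 3 of 88 cells). After thinning, fewer cells remained, and they were grouped anew by the neuronal genes still detected. The course was then another. The share was 17.1% and 16.2% with no neuronal gene, 18.7% and 18.0% with 1, and 6.93% and 14.5% with 2. It was 5.26% and 7.69% with 4 (1 of 19 and 2 of 26 cells). None of the 7 and 9 cells with all 5 was cycling, which allows shares of up to 40.96% and 33.6% by the exact 95% interval. Gated cells with a UMI of a HOX gene, a marker of the hindbrain and spinal cord, were cycling in 35.5% and 36.1%, against 30.2% and 28.2% of those with none, and in 21.7% and 21.6% against 15.0% and 15.6% after thinning. Of the few gated cells with RSPO2, a secreted enhancer of WNT signalling, 5 of 35 and 5 of 45 were cycling (14.3% and 11.1%), against 32.7% and 31.9% of those without. These shares are described and were not tested.

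**Figure D2:**
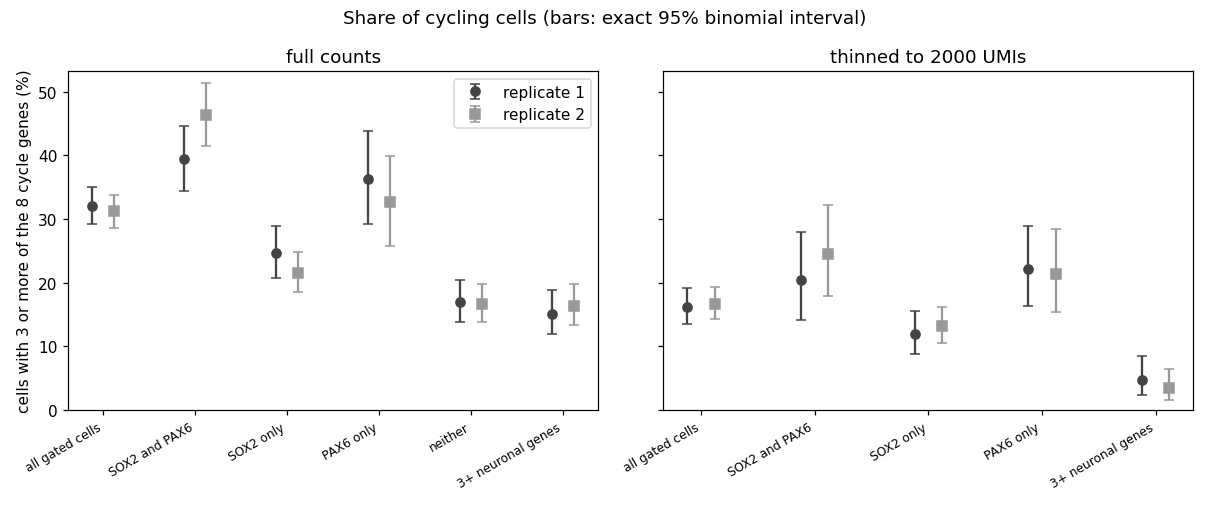
Share of cells with 3 or more of the 8 cycle genes (%), in all counts (left) and with each cell thinned to 2000 UMIs (right); points are replicates and bars exact 95% binomial intervals. In both panels cells with PAX6, alone or with SOX2, stand above cells with SOX2 alone and above neuronal cells.

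Raw counts of cycling, intermediate and non-cycling progenitors were summed per replicate and compared with edgeR's quasi-likelihood test over 12004 genes, with the rule's genes left out of the test. At an adjusted p under 0.05, 1965 genes (16.4%) rose and 2192 (18.3%) fell in cycling progenitors, and the median log2 fold change of all genes was -0.01. With cells thinned to 2000 UMIs, 819 of 9287 tested genes (8.82%) rose and 895 (9.64%) fell. Counts on gene lists are read against these shares of all genes. Because the arms were cut by cycle genes of the same cells, higher RNA of further cycle genes shows that they were found in the same cells and is no independent evidence of cycling. Every gene said below to have risen or fallen moved that way in both replicates.

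**Figure D3:**
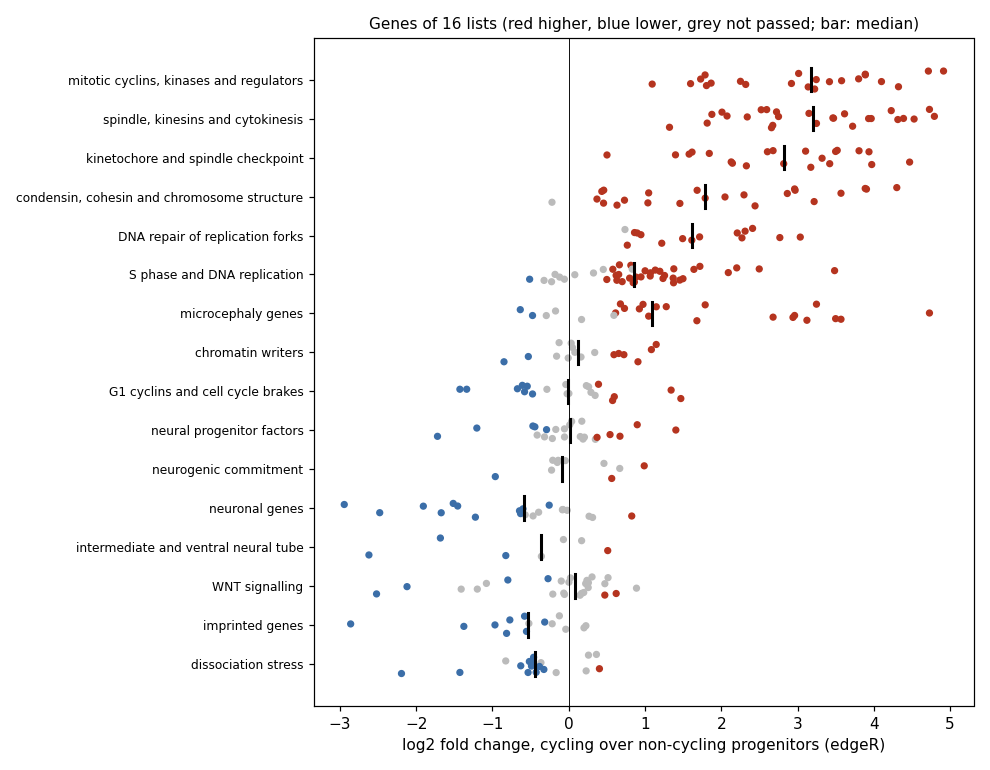
Log2 fold change, cycling over non-cycling progenitors, of each tested gene of 16 lists; red points rose and blue points fell at an adjusted p under 0.05, grey points did not pass, and bars are list medians. The 4 mitotic lists lie almost wholly to the right, while neuronal, imprinted and stress genes have medians under 0.

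The mitotic control genes rose together. All 22 tested cyclins, kinases and regulators outside the rule were higher, with a median log2 fold change of 3.18. CCNB1, the cyclin that activates CDK1 at entry into mitosis, had 35.0 and 43.2 CPM in cycling progenitors, against 1.77 and 0.741 CPM in non-cycling progenitors (log2 fold change 4.91, SE 0.41, adjusted p = 3.26e-13). CCNB2, its partner cyclin, had 143 and 138 CPM in cycling progenitors, against 7.08 and 5.92 CPM in non-cycling progenitors (log2 fold change 4.32, SE 0.22, adjusted p = 4.99e-21). CCNF, the cyclin F subunit of a ubiquitin ligase, had 46.8 and 59.4 CPM in cycling progenitors, against 1.77 and 1.85 CPM in non-cycling progenitors (log2 fold change 4.71, SE 0.35, adjusted p = 5.17e-15). CCNB1 was near 0 in non-cycling cells. NEK2, a kinase that separates centrosomes, had 70.0 and 53.9 CPM in cycling progenitors, against 4.13 and 2.59 CPM in non-cycling progenitors (log2 fold change 4.10, SE 0.31, adjusted p = 4.69e-14). FOXM1, the transcription factor of the mitotic programme, had a log2 fold change of 3.89 (adjusted p = 1.03e-11), and WEE1, the kinase that holds CDK1 back, the smallest of the list at 1.09 (adjusted p = 9.78e-10).

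Genes of the spindle and of the kinetochore gave the same picture. Of 26 spindle, kinesin and cytokinesis genes 26 rose (median 3.20), and of 21 kinetochore and checkpoint genes 21 rose (median 2.82). TPX2, which recruits Aurora A to the spindle, had 313 and 360.1 CPM in cycling progenitors, against 10.0 and 11.8 CPM in non-cycling progenitors (log2 fold change 4.79, SE 0.16, adjusted p = 1.53e-27). KIF14, a kinesin of cytokinesis, had 36.5 and 45.2 CPM in cycling progenitors, against 2.36 and 0.741 CPM in non-cycling progenitors (log2 fold change 4.73, SE 0.39, adjusted p = 1.12e-13). KIF4A, a kinesin that binds chromosomes, had 95.7 and 101 CPM in cycling progenitors, against 4.72 and 3.33 CPM in non-cycling progenitors (log2 fold change 4.53, SE 0.25, adjusted p = 2.05e-19). All 3 were scarce in non-cycling cells. KIF2C, a kinesin that takes microtubules apart at centromeres, had 59.2 and 49.5 CPM in cycling progenitors, against 2.36 and 2.22 CPM in non-cycling progenitors (log2 fold change 4.39, SE 0.32, adjusted p = 3.00e-15). At the kinetochore, the checkpoint kinase gene TTK had 156 and 139 CPM in cycling progenitors, against 8.85 and 4.07 CPM in non-cycling progenitors (log2 fold change 4.47, SE 0.22, adjusted p = 2.09e-21). NDC80, which holds microtubules, had 468 and 391 CPM in cycling progenitors, against 30.1 and 21.8 CPM in non-cycling progenitors (log2 fold change 3.94, SE 0.13, adjusted p = 1.53e-27). It was among the most abundant kinetochore genes of these cells. CENPA, the histone variant of centromeres, had 41.2 and 44.0 CPM in cycling progenitors, against 1.18 and 3.33 CPM in non-cycling progenitors (log2 fold change 3.97, SE 0.34, adjusted p = 4.33e-13), and SPC25, a subunit of the same complex as NDC80, had 32.9 and 25.7 CPM in cycling progenitors, against 2.36 and 1.48 CPM in non-cycling progenitors (log2 fold change 3.81, SE 0.39, adjusted p = 4.28e-11). SKA2 differed least, with a log2 fold change of 0.50 (adjusted p = 3.63e-04). SKA2 (0.024) lost the call after thinning, and SKA2 (0.38) in cells with 10% or more ribosomal RNA.

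Of 23 genes of condensin, cohesin and chromosome structure 22 rose (median 1.79). TOP2A had 589 and 585 CPM in cycling progenitors, against 30.7 and 24.8 CPM in non-cycling progenitors (log2 fold change 4.30, SE 0.13, adjusted p = 2.10e-29). It was detected in 79.3% and 81.3% of cycling cells, against 16.2% and 12.7% of non-cycling cells. BIRC5 and CDCA8, both subunits of the chromosomal passenger complex, rose by 3.90 and 3.89 on the log2 scale (adjusted p = 4.43e-21 and 1.26e-15), and the condensin subunit NCAPH by 3.57 (adjusted p = 3.51e-15). Cohesin, which holds sister chromatids together from S phase on, moved little: SMC1A rose by 0.43 (adjusted p = 0.00179) and RAD21 by 0.46 (adjusted p = 0.00152), while SMC3 had a log2 fold change of -0.22 that did not pass (adjusted p = 0.0784). The chromatin protein gene HMGB2 had 739 and 808 CPM in cycling progenitors, against 237 and 206 CPM in non-cycling progenitors (log2 fold change 1.68, SE 0.096, adjusted p = 6.58e-19), and HMGB1 rose by 0.63 (adjusted p = 4.32e-07). SMC1A (0.18), RAD21 (0.53) and HMGB1 (0.33) lost the call after thinning, and SMC1A (0.36) in cells under 10% ribosomal RNA. SMC1A (0.26) also lost the call without the cycling sum of replicate 1, and SMC1A (0.28) and RAD21 (0.39) without the non-cycling sum of replicate 1. SMC1A stood at 0.66 without the cycling sum of replicate 2, called.

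S phase genes rose less and not all in 1 direction: 31 of 41 were higher, 1 was lower, and the median was 0.86. CDC6, which loads the replicative helicase, had 109 and 106 CPM in cycling progenitors, against 10.6 and 7.41 CPM in non-cycling progenitors (log2 fold change 3.49, SE 0.21, adjusted p = 1.86e-18). DTL, a substrate receptor for protein breakdown in S phase, had 455 and 378 CPM in cycling progenitors, against 79.6 and 57.0 CPM in non-cycling progenitors (log2 fold change 2.50, SE 0.12, adjusted p = 3.38e-21). RRM2, a subunit of ribonucleotide reductase, had 204 and 173 CPM in cycling progenitors, against 31.3 and 41.1 CPM in non-cycling progenitors (log2 fold change 2.20, SE 0.14, adjusted p = 1.17e-16). CLSPN, which encodes the checkpoint adaptor claspin, had 129.7 and 124 CPM in cycling progenitors, against 35.4 and 21.1 CPM in non-cycling progenitors (log2 fold change 2.09, SE 0.16, adjusted p = 1.79e-14). The helicase subunits themselves split: MCM6 rose by 1.37 (adjusted p = 1.95e-11), MCM3 by 0.66 (adjusted p = 3.58e-04) and MCM4 by 0.50 (adjusted p = 0.00577), while MCM5 fell, with 76.2 and 64.6 CPM in cycling progenitors, against 82.0 and 98.5 CPM in non-cycling progenitors (log2 fold change -0.51, SE 0.14, adjusted p = 0.00358). MCM2 and MCM7 did not pass, at log2 fold changes of -0.32 and -0.06. The helicase loading factor CDT1 (-0.22), the uracil glycosylase UNG (-0.18) and the maintenance methyltransferase DNMT1 (0.08) did not pass either. Repair genes of replication forks rose in 14 of 15 cases (median 1.61). BRCA1, of homologous recombination, had 355 and 381 CPM in cycling progenitors, against 59.6 and 41.8 CPM in non-cycling progenitors (log2 fold change 2.77, SE 0.13, adjusted p = 4.43e-21). The polymerase POLQ rose by 2.41 (adjusted p = 2.04e-18) and FANCD2, of the Fanconi anaemia pathway, by 2.31 (adjusted p = 4.01e-16). MCM3 (0.32) and MCM4 (0.11) lost the call after thinning, MCM5 (-0.52) in cells under 10% ribosomal RNA, and MCM6 (0.59), MCM4 (0.18) and MCM5 (0.072) in cells with 10% or more ribosomal RNA, with a change of sign for MCM5. MCM4 (0.41) also lost the call without the cycling sum of replicate 1, MCM5 (-0.27) without the cycling sum of replicate 2, and MCM4 (0.52) and MCM5 (-0.32) without the non-cycling sum of replicate 2.

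Of 24 genes in which mutations cause microcephaly in humans 18 rose, 2 fell and 4 did not pass. The list shares genes with the lists above. KIF14, the condensin NCAPH, the kinetochore motor CENPE (log2 fold change 3.50, adjusted p = 9.78e-23) and CIT, the citron kinase of cytokinesis (3.25, adjusted p = 2.05e-19), led it. WDR62, a spindle pole gene, had 68.4 and 80.8 CPM in cycling progenitors, against 11.8 and 5.18 CPM in non-cycling progenitors (log2 fold change 3.12, SE 0.25, adjusted p = 1.11e-13). STIL, needed to build centrioles, had 155 and 124 CPM in cycling progenitors, against 17.7 and 15.2 CPM in non-cycling progenitors (log2 fold change 2.94, SE 0.17, adjusted p = 1.35e-18). The centriole genes CEP152, CEP135 and SASS6 rose by 1.68, 1.28 and 1.15 on the log2 scale (adjusted p = 6.32e-12, 3.93e-11 and 2.90e-07). CDK6, a G1 kinase, fell by 0.47 (adjusted p = 5.93e-05), and so did COPB2, of the Golgi coat, by 0.63 (adjusted p = 9.80e-04). CENPJ, PHC1, ANKLE2 and WDFY3 did not pass. COPB2 (-0.062) lost the call after thinning, and COPB2 (-0.34) in cells with 10% or more ribosomal RNA. COPB2 also lost the call without the non-cycling sum of replicate 1 (-0.47).

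G1 genes and brakes of the cycle moved in both directions: of 20 tested, 5 rose and 7 fell. The D cyclins drive the passage through G1. CCND2 had 69.0 and 61.8 CPM in cycling progenitors, against 124 and 174 CPM in non-cycling progenitors (log2 fold change -1.34, SE 0.14, adjusted p = 1.92e-10), and CCND1 did not pass, at 95.2 and 92.3 CPM in the cycling sums and 73.7 and 99.98 CPM in the non-cycling sums. CDK4, their kinase, had 35.5 and 40.4 CPM in cycling progenitors, against 41.3 and 67.8 CPM in non-cycling progenitors (log2 fold change -0.67, SE 0.17, adjusted p = 0.00211). BTG2, an antiproliferative gene of progenitors about to make neurons in mouse, had 13.9 and 17.8 CPM in cycling progenitors, against 28.9 and 47.8 CPM in non-cycling progenitors (log2 fold change -1.43, SE 0.25, adjusted p = 3.20e-05), and the CDK inhibitor gene CDKN1C fell by 0.58 (adjusted p = 0.00133). RBL1, the p107 pocket protein, rose instead, with 157 and 153 CPM in cycling progenitors, against 53.7 and 57.0 CPM in non-cycling progenitors (log2 fold change 1.34, SE 0.13, adjusted p = 1.59e-11), and RB1 rose by 0.60 (adjusted p = 1.22e-04). CDK4 (-0.93), CDKN1C (-0.26) and RB1 (0.41) lost the call after thinning, CCND2 (-0.47), CDK4 (-0.050), CDKN1C (0.056) and RB1 (0.28) in cells under 10% ribosomal RNA, and CDK4 (-0.20) and RB1 (0.56) in cells with 10% or more ribosomal RNA, with a change of sign for CDKN1C. CDKN1C (-0.40) also lost the call without the cycling sum of replicate 1, CDK4 (-0.48) without the cycling sum of replicate 2, and CDK4 (-0.37) and BTG2 (-0.86) without the non-cycling sum of replicate 2.

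Neural progenitor factors showed no common direction: 5 of 23 tested rose, 5 fell and 13 did not pass, close to the share of all genes. SOX1, a relative of SOX2 kept in dividing progenitors, had 72.0 and 60.2 CPM in cycling progenitors, against 38.9 and 27.0 CPM in non-cycling progenitors (log2 fold change 0.90, SE 0.17, adjusted p = 5.91e-05). LIN28A, an RNA-binding protein of early progenitors, had 32.9 and 34.1 CPM in cycling progenitors, against 15.3 and 8.89 CPM in non-cycling progenitors (log2 fold change 1.40, SE 0.26, adjusted p = 2.16e-05). ZIC1 and ZIC2, zinc finger factors of the dorsal neural tube, rose by 0.54 and 0.37 (adjusted p = 0.0229 and 0.00457). On the lower side, FABP7, a fatty acid binding protein of radial glia, had 28.8 and 28.1 CPM in cycling progenitors, against 81.4 and 89.2 CPM in non-cycling progenitors (log2 fold change -1.72, SE 0.17, adjusted p = 1.59e-11). VIM, the intermediate filament gene of progenitors and mesenchyme, had 912 and 1248 CPM in cycling progenitors, against 1953 and 2588 CPM in non-cycling progenitors (log2 fold change -1.20, SE 0.097, adjusted p = 5.58e-14). NES fell by 0.29 (adjusted p = 0.012) and ID4, an inhibitor of proneural factors, by 0.47 (adjusted p = 5.50e-05). HES5, a Notch target, went opposite ways in the replicates, with 74.6 and 151 CPM in cycling progenitors, against 153 and 88.1 CPM in non-cycling progenitors. The Notch target HES1, the cadherin CDH2 and the RNA-binding MSI1 did not pass. VIM stood at -0.43 in cells under 10% and at -0.74 in cells with 10% or more ribosomal RNA, called in both. LIN28A (1.02), ZIC2 (0.36) and NES (-0.30) lost the call after thinning, ZIC1 (0.23), NES (-0.19) and ID4 (0.028) in cells under 10% ribosomal RNA, and ZIC1 (0.84), ZIC2 (0.35) and NES (-0.068) in cells with 10% or more ribosomal RNA, with a change of sign for ID4. ZIC1 (0.29), ZIC2 (0.32) and NES (-0.20) also lost the call without the cycling sum of replicate 2, NES (-0.31) without the non-cycling sum of replicate 1, and ZIC1 (0.28), ZIC2 (0.23) and NES (-0.28) without the non-cycling sum of replicate 2.

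**Figure D4:**
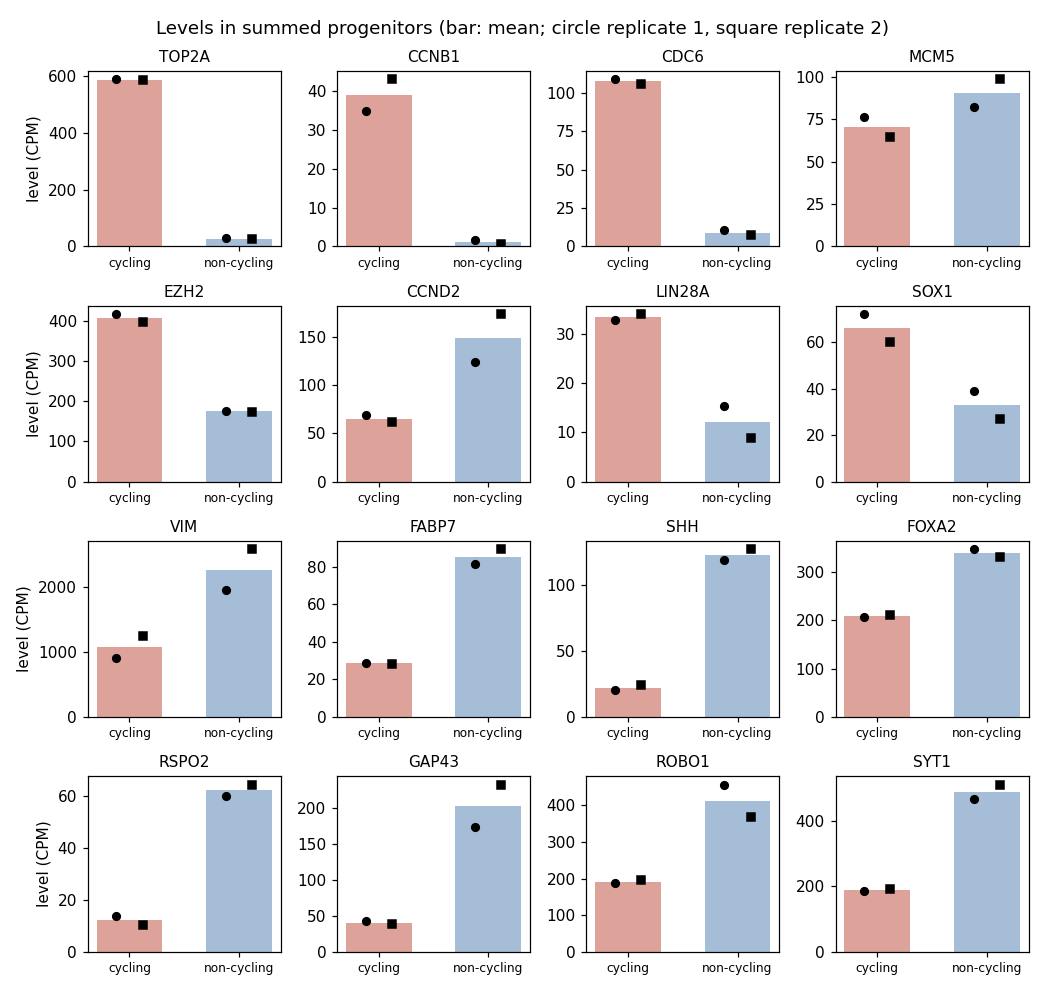
Level in CPM of 16 genes in the summed cycling (left bars) and non-cycling (right bars) progenitors; bars are means of 2 replicates, with a circle for replicate 1 and a square for replicate 2. The 16 genes were picked among those called in the test, so that their replicates stand apart is no further result. MCM5 has the smallest gap.

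Of 19 genes of neuronal commitment in the table, 10 had enough counts to be tested, of which 2 rose and 1 fell. GADD45G, a growth arrest gene, had 53.5 and 48.3 CPM in cycling progenitors, against 25.4 and 21.5 CPM in non-cycling progenitors (log2 fold change 0.99, SE 0.20, adjusted p = 7.89e-05). SRRM4, a neuronal splicing factor, fell by 0.96 (adjusted p = 0.00187) and the RNA-binding ELAVL2 rose by 0.56 (adjusted p = 0.0153). In gated cells with a SOX2 UMI, SRRM4 stood at -0.37 and was not called. Neuronal genes outside the rule fell more often: 11 of 20 fell and 1 rose (median -0.59). GAP43, of growing axons, had 42.7 and 38.0 CPM in cycling progenitors, against 173 and 233 CPM in non-cycling progenitors (log2 fold change -2.48, SE 0.15, adjusted p = 2.89e-15). The presynaptic adhesion gene NRXN3 fell by 1.67 (adjusted p = 2.95e-14). SYT1, the calcium sensor of synaptic vesicles, had 185 and 191 CPM in cycling progenitors, against 468 and 512 CPM in non-cycling progenitors (log2 fold change -1.51, SE 0.095, adjusted p = 1.49e-17). The axon guidance receptors DCC and ROBO1 fell by 1.46 and 1.22 (adjusted p = 3.93e-07 and 3.21e-14). MAPT, which encodes tau, was the one that rose (0.83, adjusted p = 0.0495), a call lost in 13 alternatives, and the microtubule gene MAP1B did not pass. The GAP43 and SYT1 calls held in each alternative that gave a test, while NRXN3 (-0.87) and DCC (-0.63) lost theirs in cells with no neuronal gene. ELAVL2 (-0.082) and MAPT (0.59) lost the call after thinning, ELAVL2 (0.044), NRXN3 (-2.27) and MAPT (0.11) in cells under 10% ribosomal RNA, and GADD45G (1.04), ELAVL2 (1.16) and NRXN3 (-0.73) in cells with 10% or more ribosomal RNA, with a change of sign for ELAVL2. SRRM4 (-0.70), ELAVL2 (0.20) and MAPT (0.24) also lost the call without the cycling sum of replicate 2, MAPT (0.97) without the non-cycling sum of replicate 1, and SRRM4 (-0.60), ELAVL2 (0.51) and MAPT (0.59) without the non-cycling sum of replicate 2. ELAVL2 stood at 0.92 without the cycling sum of replicate 1, called.

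Several genes of the ventral neural tube were lower in cycling progenitors: of 7 tested genes of the intermediate and ventral neural tube, 1 rose and 3 fell. SHH, the signal of the floor plate and notochord, had 20.1 and 23.8 CPM in cycling progenitors, against 119 and 127 CPM in non-cycling progenitors (log2 fold change -2.62, SE 0.17, adjusted p = 2.11e-17). It was found in 8.46% and 9.98% of cycling cells, against 20.1% and 27.9% of non-cycling cells. FOXA2, a factor of the floor plate and of endoderm, had 208 and 211 CPM in cycling progenitors, against 347 and 332 CPM in non-cycling progenitors (log2 fold change -0.82, SE 0.10, adjusted p = 1.05e-08). It stood at -0.53 after thinning and at -0.46 in cells under 10% ribosomal RNA, called in both. Many cells of both sets carried it: 38.9% and 41.9% of cycling and 47.9% and 51.2% of non-cycling progenitors. The intermediate-domain factor IRX5 rose by 0.51 (adjusted p = 0.0105). NKX2-2 and NKX6-1, of ventral progenitors, did not pass. IRX5 (0.24) lost the call after thinning, IRX5 (0.39) in cells under 10% ribosomal RNA, and IRX5 (0.65) in cells with 10% or more ribosomal RNA. IRX5 also lost the call without the cycling sum of replicate 2 (0.51), the non-cycling sum of replicate 1 (0.46) and the non-cycling sum of replicate 2 (0.57).

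Among 7 tested dorsal genes, PAX3, a factor of dorsal progenitors, had 181 and 196 CPM in cycling progenitors, against 148 and 97.4 CPM in non-cycling progenitors (log2 fold change 0.54, SE 0.12, adjusted p = 0.001), and LMX1A, of the roof plate, had 24.7 and 21.8 CPM in cycling progenitors, against 38.3 and 33.3 CPM in non-cycling progenitors (log2 fold change -0.75, SE 0.21, adjusted p = 0.00409). Of 4 tested forebrain and midbrain genes 1 fell, EMX2, which had at most 5.55 CPM. Of the HOX list 4 genes were tested and HOXA3 rose, with 24.2 and 32.9 CPM in cycling progenitors, against 14.2 and 8.15 CPM in non-cycling progenitors (log2 fold change 1.31, SE 0.28, adjusted p = 2.62e-04), while HOXA2 did not pass at 32.9 and 33.3 CPM in the cycling sums and 25.4 and 28.1 CPM in the non-cycling sums. LMX1A (-1.19) and HOXA3 (0.096) lost the call after thinning, PAX3 (-0.073) and HOXA3 (0.83) in cells under 10% ribosomal RNA, and LMX1A (-0.64) in cells with 10% or more ribosomal RNA, with a change of sign for PAX3. PAX3 (0.26), LMX1A (-0.66) and HOXA3 (0.74) also lost the call without the cycling sum of replicate 2, and PAX3 (0.29) and HOXA3 (0.90) without the non-cycling sum of replicate 2. EMX2 stood at -6.51 without the cycling sum of replicate 2, called.

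Signalling genes moved singly. In the Notch pathway, which keeps progenitors from becoming neurons, 3 of 18 tested genes rose and 4 fell. MAML2, a coactivator of Notch, had 627 and 635 CPM in cycling progenitors, against 1209 and 1294 CPM in non-cycling progenitors (log2 fold change -1.12, SE 0.093, adjusted p = 1.23e-13), and the target gene HEY2 had 18.0 and 25.0 CPM in cycling progenitors, against 9.44 and 6.30 CPM in non-cycling progenitors (log2 fold change 1.39, SE 0.31, adjusted p = 3.93e-04). The modifier LFNG rose by 0.67 (adjusted p = 0.0252), and the receptor NOTCH3 fell by 0.51 (adjusted p = 0.0191). In the WNT pathway 2 of 26 rose and 4 fell. RSPO2 had 13.9 and 10.3 CPM in cycling progenitors, against 60.2 and 64.4 CPM in non-cycling progenitors (log2 fold change -2.52, SE 0.21, adjusted p = 2.96e-13), and RSPO1, of the same family, fell by 2.12 (adjusted p = 1.51e-05). Few cells carried RSPO2: 5 and 5 cycling cells, against 14 and 17 non-cycling cells. LGR5, the receptor of R-spondins, rose by 0.62 (adjusted p = 0.00239), the WNT binding protein SFRP2 rose by 0.47 (adjusted p = 0.00702), and DKK3 fell by 0.80 (adjusted p = 0.013). LFNG (-0.10), NOTCH3 (-0.15), LGR5 (0.62), SFRP2 (-0.053) and DKK3 (-1.29) lost the call after thinning, LFNG (0.39), LGR5 (0.36), SFRP2 (0.098) and DKK3 (-0.47) in cells under 10% ribosomal RNA, and LFNG (0.96), NOTCH3 (0.073), LGR5 (0.36) and DKK3 (-0.97) in cells with 10% or more ribosomal RNA, with a change of sign for LFNG, SFRP2 and NOTCH3. HEY2 (1.05), LFNG (0.18), NOTCH3 (-0.42), LGR5 (0.38) and DKK3 (-0.70) also lost the call without the cycling sum of replicate 2, NOTCH3 (-0.47) without the non-cycling sum of replicate 1, and HEY2 (0.87), LFNG (0.27), NOTCH3 (-0.57), LGR5 (0.44), SFRP2 (0.44) and DKK3 (-0.70) without the non-cycling sum of replicate 2. LFNG stood at 1.11 without the cycling sum of replicate 1 and LFNG at 1.05 without the non-cycling sum of replicate 1, called.

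In the hedgehog pathway 2 of 14 genes rose besides the fall of SHH. They were SUFU, a brake on GLI factors (log2 fold change 0.56, SE 0.15, adjusted p = 0.00275), and HHIP, which binds the ligand (log2 fold change 0.46, SE 0.12, adjusted p = 0.00233). The receptor PTCH1 and the effector GLI3 did not pass. Of 20 FGF and BMP genes 5 rose and 5 fell. ETV5, an FGF target, had 71.0 and 60.6 CPM in cycling progenitors, against 38.9 and 27.8 CPM in non-cycling progenitors (log2 fold change 0.87, SE 0.17, adjusted p = 7.13e-05). SMAD6, an inhibitor of BMP signals, had 144 and 179 CPM in cycling progenitors, against 106 and 75.9 CPM in non-cycling progenitors (log2 fold change 0.75, SE 0.17, adjusted p = 0.00393), and the BMP target ID2 rose by 0.48 (adjusted p = 4.30e-05). FGF14, an intracellular relative of the FGF family, fell by 0.64 (adjusted p = 0.00574). SUFU (0.62), HHIP (0.30) and ETV5 (0.51) lost the call after thinning, SUFU (0.29) and HHIP (-0.14) in cells under 10% ribosomal RNA, and SUFU (0.38), ETV5 (0.061), ID2 (0.11) and FGF14 (-0.16) in cells with 10% or more ribosomal RNA, with a change of sign for HHIP. SUFU (0.42) and SMAD6 (0.33) also lost the call without the cycling sum of replicate 2, and SUFU (0.45), HHIP (0.27) and FGF14 (-0.36) without the non-cycling sum of replicate 2.

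Of 17 genes of apical junctions and polarity 5 rose and 4 fell. GPSM2, which orients the spindle at the cell cortex, had 231 and 237 CPM in cycling progenitors, against 128 and 133 CPM in non-cycling progenitors (log2 fold change 0.71, SE 0.11, adjusted p = 5.14e-07). The polarity kinase PRKCI had 172 and 154 CPM in cycling progenitors, against 86.7 and 96.3 CPM in non-cycling progenitors (log2 fold change 0.68, SE 0.13, adjusted p = 6.84e-05), and its partner PARD6B rose by 0.59 (adjusted p = 0.0261). CTNNA2, the neural alpha-catenin, had 413 and 310.2 CPM in cycling progenitors, against 670.1 and 501 CPM in non-cycling progenitors (log2 fold change -0.82, SE 0.092, adjusted p = 5.41e-10). PRKCI (0.44), PARD6B (-0.21) and CTNNA2 (0.0091) lost the call in cells with 10% or more ribosomal RNA, with a change of sign for PARD6B and CTNNA2. PARD6B also lost the call without the cycling sum of replicate 1 (0.65), the cycling sum of replicate 2 (0.54), the non-cycling sum of replicate 1 (0.48) and the non-cycling sum of replicate 2 (0.74). PRKCI stood at 0.45 without the non-cycling sum of replicate 1, called.

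Chromatin writers included the Polycomb complex that methylates histone H3. Of 16 genes 6 rose and 2 fell. EZH2, its enzyme, had 416 and 396 CPM in cycling progenitors, against 176 and 173 CPM in non-cycling progenitors (log2 fold change 1.08, SE 0.095, adjusted p = 7.33e-13), and its partners SUZ12 and EED rose by 0.72 and 0.59 (adjusted p = 2.48e-07 and 4.34e-04). SUV39H2, a heterochromatin methyltransferase, rose by 0.91 (adjusted p = 1.18e-04), and DNMT3A, a de novo DNA methyltransferase, fell by 0.85 (adjusted p = 2.48e-04). Of 14 imprinted genes none rose and 8 fell (median -0.54). NDN, a growth suppressor of neurons, had 14.9 and 29.3 CPM in cycling progenitors, against 41.9 and 63.3 CPM in non-cycling progenitors (log2 fold change -1.37, SE 0.19, adjusted p = 1.26e-07), SNRPN fell by 0.97 (adjusted p = 6.47e-07), PEG10 by 0.81 (adjusted p = 7.70e-08) and PEG3 by 0.77 (adjusted p = 1.24e-08). PEG3 was called in every alternative that gave a test, at -0.38 in cells under 10% ribosomal RNA. SUV39H2 (0.66), DNMT3A (-0.69) and PEG10 (-0.43) lost the call after thinning, EED (0.41), NDN (-0.56), SNRPN (-0.56) and PEG10 (-0.16) in cells under 10% ribosomal RNA, and SUZ12 (0.48), EED (0.44), SUV39H2 (0.86), DNMT3A (-0.48) and SNRPN (-0.48) in cells with 10% or more ribosomal RNA. EED also lost the call without the non-cycling sum of replicate 2 (0.50).

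Ribosomal protein genes fell almost throughout: of 77, none rose and 75 fell (median -0.90). Within cells of under 10% ribosomal RNA 36 of the 77 fell and none rose, and within cells of 10% or more 31 fell and 1 rose, with medians of -0.26 and -0.27. The share of cells under 10% was 74.3% and 72.6% of cycling progenitors and 66.7% and 56.2% of non-cycling progenitors. Genes of ribosome building were mixed, with 4 of 16 higher and 2 lower. The nucleolar NPM1 fell, with 516 and 567 CPM in cycling progenitors, against 727 and 926 CPM in non-cycling progenitors (log2 fold change -0.74, SE 0.094, adjusted p = 1.68e-08). NOP58, a core protein of small nucleolar particles, had 508 and 440.1 CPM in cycling progenitors, against 337 and 265 CPM in non-cycling progenitors (log2 fold change 0.53, SE 0.092, adjusted p = 8.61e-06). NOLC1 and the polymerase subunit POLR1B rose by 0.50 and 0.62 (adjusted p = 5.82e-04 and 0.0127). NOLC1 (0.37) and POLR1B (0.47) lost the call after thinning, NPM1 (-0.070) and POLR1B (0.47) in cells under 10% ribosomal RNA, and NPM1 (-0.24), NOLC1 (0.47) and POLR1B (0.30) in cells with 10% or more ribosomal RNA. POLR1B also lost the call without the cycling sum of replicate 2 (0.39) and the non-cycling sum of replicate 2 (0.40).

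Genes that respond to dissociation fell in 11 of 18 cases and 1 rose (median -0.44). EGR1 fell by 0.63 (adjusted p = 0.0136), JUND by 0.52 (adjusted p = 6.83e-05), FOS by 0.46 (adjusted p = 9.17e-04) and FOSB by 0.53 (adjusted p = 0.0315), and ATF3 rose by 0.40 (adjusted p = 0.00383). EGR1 (-0.28), JUND (-0.34), FOS (-0.43) and FOSB (0.43) lost the call after thinning, EGR1 (-0.61), JUND (-0.18), FOS (-0.29), FOSB (-0.30) and ATF3 (0.18) in cells under 10% ribosomal RNA, and EGR1 (-0.92) and ATF3 (-0.043) in cells with 10% or more ribosomal RNA, with a change of sign for FOSB and ATF3. EGR1 (-0.42) and FOSB (-0.32) also lost the call without the cycling sum of replicate 1, ATF3 (0.18) without the cycling sum of replicate 2, EGR1 (-0.61) and FOSB (-0.59) without the non-cycling sum of replicate 1, and EGR1 (-0.66), FOS (-0.33), FOSB (-0.46) and ATF3 (0.39) without the non-cycling sum of replicate 2. ATF3 stood at 0.62 without the cycling sum of replicate 1, called.

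Markers of other cell types moved as well. Of 14 mesenchyme and matrix genes none rose and 5 fell, among them SPARC (log2 fold change -1.33, SE 0.11, adjusted p = 7.04e-14) and TWIST1 (log2 fold change -1.68, SE 0.22, adjusted p = 4.04e-08), and 8 mesenchyme markers summed to 105 and 302 CPM in cycling progenitors and 636 and 620.3 CPM in non-cycling progenitors. A few cells held most of it: 85.2% and 87.0% of the UMIs of the collagen gene COL1A1 in the non-cycling sums came from 5 cells each, and COL1A1 was detected in 9.40% and 16.7% of cycling cells and 11.6% and 10.6% of non-cycling cells. The 4 endoderm markers, FOXA2 among them, summed to 307 and 411 CPM in cycling progenitors and 802 and 821 CPM in non-cycling progenitors. KRT8 and KRT19, keratins of simple epithelia, fell by 0.98 and 0.93 (adjusted p = 0.00104 and 6.60e-05), TTR, a plasma protein of yolk sac and liver, fell by 3.51 (adjusted p = 1.23e-12) on counts of which 80.2% sat in 5 cells in the non-cycling sum of replicate 2, and GATA3, a factor of trophoblast and ectoderm, rose by 0.31 (adjusted p = 0.00851). Markers of endothelium and myeloid cells summed to at most 4.44 CPM in any sum of both sets, with 1 or 2 of 4 endothelial markers at 0. The part of these other cells in the remaining differences was examined only by leaving them out. Without the cells that carried 3 or more markers of another type, 1633 genes rose and 1744 fell, COL5A1 and FOSB turned to 0.13 and 0.14, KRT8 (-0.35) and KRT19 (-0.30) lost their calls, and SPARC kept its call, as it did after thinning (-0.64). TWIST1 (-0.77), KRT19 (0.071), GATA3 (0.16) and COL5A1 (0.11) lost the call after thinning, TWIST1 (-0.48), KRT8 (-0.30) and COL5A1 (-0.21) in cells under 10% ribosomal RNA, and KRT8 (-0.55), KRT19 (-0.23), GATA3 (0.35) and COL5A1 (-0.68) in cells with 10% or more ribosomal RNA, with a change of sign for KRT19 and COL5A1. GATA3 (0.24) and COL5A1 (-0.55) also lost the call without the cycling sum of replicate 1, KRT8 (-0.49) and COL5A1 (-0.74) without the cycling sum of replicate 2, GATA3 (0.29) and COL5A1 (-0.52) without the non-cycling sum of replicate 1, and GATA3 (0.32) and COL5A1 (-0.80) without the non-cycling sum of replicate 2. KRT8 stood at -0.65 without the non-cycling sum of replicate 2, called.

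In the cycling sums, most globin RNA sat in a handful of cells. HBZ, an embryonic globin, had 6074 and 10279.9 CPM in cycling progenitors, against 436 and 343 CPM in non-cycling progenitors (log2 fold change 4.23, SE 0.35, adjusted p = 0.0058), but 94.7% and 96.8% of its UMIs in cycling progenitors came from 5 cells of each replicate. It was detected in about the same share of cells in both sets, 83.4% and 84.5% of cycling and 80.9% and 82.0% of non-cycling progenitors. In replicate 1 a single cycling cell held 11138 of the 11803 HBZ UMIs. In the non-cycling sums 5 cells of each replicate held 17.7% and 4.64% of them. HBE1 and HBE4 showed the same concentration in the cycling sums. Without the cells that carried markers of other types, the 3 globins turned to -0.17, -0.20 and -0.15, so no direction is read from them. They are near-identical in sequence to other globins, and counting may have split their reads.

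Outside the lists, the genes with the largest rise again belonged mainly to division. ESPL1, the separase that cuts cohesin, had 28.8 and 38.8 CPM in cycling progenitors, against 0.590 and 0 CPM in non-cycling progenitors. That is a ratio of 152 per UMI with an exact 95% interval of 26.8 to 6023, on 154 UMIs in the cycling and 1 UMI in the non-cycling sums. This interval pools both replicates and covers counting error only. The edgeR test called the rise (adjusted p = 1.68e-13). SHCBP1, a midbody protein, had 69.5 and 74.1 CPM in cycling progenitors, against 1.18 and 1.11 CPM in non-cycling progenitors (log2 fold change 5.79, SE 0.34, adjusted p = 1.52e-18), and HJURP, the chaperone of CENPA, had 48.9 and 49.5 CPM in cycling progenitors, against 2.36 and 2.22 CPM in non-cycling progenitors (log2 fold change 4.27, SE 0.33, adjusted p = 1.23e-14). PRR11 and PIMREG rose by 4.22 and 3.80 (adjusted p = 7.42e-14 and 1.91e-13). The histone genes H2BC17 and H2AC17 rose by 4.22 and 3.95 (adjusted p = 1.82e-11 and 3.55e-12), but they have near-identical copies, and their values are uncertain. MYL7, an atrial muscle light chain, rose by 3.68 (adjusted p = 2.87e-12) on UMIs of 4 and 8 cells. It was found in 4 and 7 non-cycling cells, and 1 cell gave 55 of 58 UMIs in the cycling sum of replicate 1 and 82 of 132 in that of replicate 2. HBE1 and HBE4 complete the 10.

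The largest falls outside the lists were of other kinds. IGFBP5, which binds insulin-like growth factors, had 5.15 and 13.1 CPM in cycling progenitors, against 135 and 153 CPM in non-cycling progenitors (log2 fold change -4.07, SE 0.20, adjusted p = 1.87e-18). It was found in 3.13% and 4.24% of cycling cells, against 19.5% and 26.0% of non-cycling cells. SLITRK6 and LINGO2, membrane proteins of neurons, fell by 3.17 and 3.08 (adjusted p = 4.49e-11 and 1.80e-14), and CHRM3, a muscarinic receptor, by 2.49 (adjusted p = 2.56e-11). FERD3L, a factor of the floor plate in mouse, had 1.54 and 4.36 CPM in cycling progenitors, against 18.9 and 23.3 CPM in non-cycling progenitors (log2 fold change -2.89, SE 0.36, adjusted p = 1.03e-08). DCHS2, PDE7B and PDZRN4 fell by 2.80, 2.90 and 2.55 (adjusted p = 1.89e-08, 2.01e-08 and 0.034). TRPM3, a cation channel, fell by 3.89 (adjusted p = 0.0429) on 11 and 16 non-cycling cells with a UMI. SRGN, a proteoglycan of blood cells, fell by 6.36 (adjusted p = 5.22e-07), but all 423 of its UMIs in the non-cycling sum of replicate 1 came from 5 cells. LINGO2 (-3.21), FERD3L (-1.39) and PDZRN4 (-2.05) lost the call in cells under 10% ribosomal RNA. In cells with no neuronal gene, LINGO2 (-2.93), PDE7B (-1.89) and CHRM3 (0.0036) lost it, with a change of sign for CHRM3. SRGN also lost the call without the non-cycling sum of replicate 1 (-1.44).

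The row named GFP, a fluorescent reporter whose carrier cells the labels do not give, had 1039 and 1319 CPM in cycling progenitors, against 2373 and 2534 CPM in non-cycling progenitors (log2 fold change -1.19, SE 0.098, adjusted p = 1.11e-13). It was detected in 82.8% and 86.5% of cycling cells, against 75.9% and 79.0% of non-cycling cells. Its log2 fold change was -0.49 in cells under 10% and -0.73 in cells with 10% or more ribosomal RNA, called in both.

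To see what was particular to the gate, the same difference was taken among cells with neither SOX2 nor PAX6 and the same limit on neuronal genes (87 and 102 cycling, 228 and 298 non-cycling), and the difference between both differences was tested. Of 11797 genes 747 (6.33%) passed, 281 (2.38%) with a larger value and 466 (3.95%) with a smaller value inside the gate. In that fit 1251 genes rose (10.6%) and 1601 fell (13.6%) inside the gate, and 865 rose (7.33%) and 1054 fell (8.93%) outside it. With cells thinned to 2000 UMIs 16 of 9049 genes (0.177%) passed. The depth gap was large: the median was 3551 and 4714 UMIs in cycling and 2390 and 2655 UMIs in non-cycling cells outside the gate. The cycling cells outside also held 75740 and 83523 CPM of erythroid markers, against 6100 and 10325 CPM inside. The non-cycling cells outside held 3166 and 3773 CPM of COL1A1, against 143 and 139.97 CPM inside, and 5059.7 and 6377 CPM of the plasma protein gene APOA1, against 433 and 394 CPM inside. The part of these other cells in the differences was not tested.

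The mitotic genes had close medians on both sides. Over 92 genes of the 4 mitotic lists the median log2 fold change was 2.81 inside and 2.79 outside, and 1 gene had a larger and 3 a smaller value inside. TOP2A stood at 4.27 inside and 4.06 outside (difference 0.22, SE 0.29, adjusted p = 0.764). TPX2 was the one with a larger value inside, 4.77 against 3.62 outside (difference 1.15, SE 0.30, adjusted p = 0.0232), and the difference was 0.14 with no call after thinning. HMGN2, H2AZ1 and LMNB1, which build chromatin and the nuclear lamina, had smaller values inside. So had 4 of 41 S phase genes. Among them MCM5 stood at -0.53 inside and 1.27 outside (adjusted p = 0.00101), MCM2 at -0.34 and 0.89 (adjusted p = 0.0125) and CDT1 at -0.24 and 1.64 (adjusted p = 0.0303), none of them called after thinning.

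**Figure D5:**
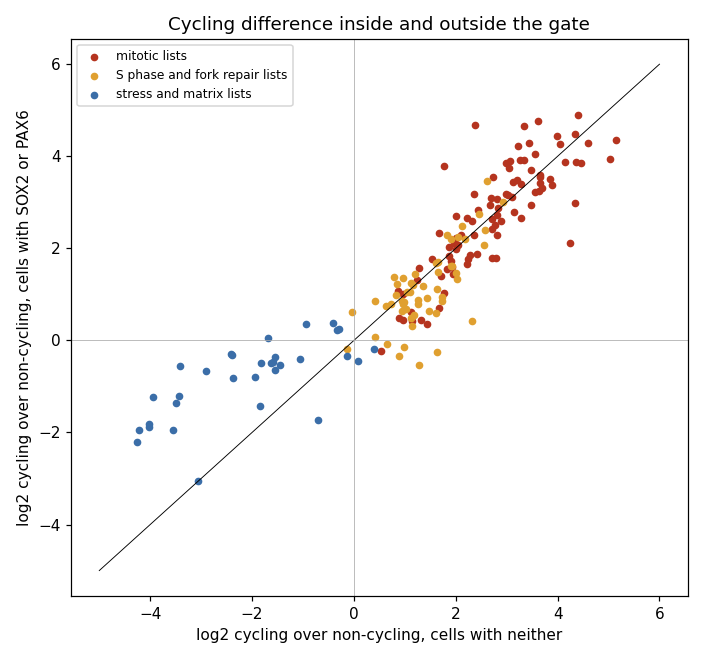
Log2 fold change, cycling over non-cycling, in cells with SOX2 or PAX6 (vertical) against cells with neither (horizontal), 1 point per gene of the mitotic, S phase, fork repair, stress and matrix lists; the line marks equal values. Mitotic genes scatter about the line, whereas stress and matrix genes, which fall further outside the gate, lie above it.

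Of 18 stress genes 6 and of 14 mesenchyme and matrix genes 4 fell further outside the gate than inside. SPARC stood at -1.35 inside and -3.49 outside (difference 2.14, SE 0.21, adjusted p = 1.44e-05), with 109 and 108 CPM in cycling and 275 and 228 CPM in non-cycling progenitors inside, against 136 and 163 CPM in cycling and 1685 and 1964 CPM in non-cycling cells outside. Of 11 genes named by rule and called in this comparison it alone was also called after thinning (adjusted p = 0.0246), where collagens and plasma protein genes led the 16 calls. The fall of SHH was larger inside, at -2.63 against -0.37 outside (adjusted p = 0.00382), and lost its call after thinning (difference -0.51, adjusted p = 0.977).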

How the data were processed

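Single-cell libraries were made from both samples. Per the submitters' processing notes, Cell Ranger with the bosTau9 build, R 4.1.2 and Seurat 4.3.0 were used, without stated roles; no source used here gives the Cell Ranger version or its annotation. The deposited values are whole UMI counts per gene and cell, already filtered by the authors, since no cell had over 3999 detected genes or over 4.98% mitochondrial UMIs. Symbols were used as deposited, and 17337 of 17846 are in RefSeq. No doublet caller was run; instead, cells with most UMIs were left out as an alternative.

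Raw counts were summed per replicate for cycling, intermediate and non-cycling progenitors (1943265 and 2524351 UMIs in the cycling sums, 1695389 and 2700494 in the non-cycling sums). They were tested with edgeR 4.0.16 (TMM, filterByExpr, robust quasi-likelihood, replicate block, Benjamini-Hochberg over 12004 genes; R 4.3.3) on 2 residual degrees of freedom. The test adds a median of 42.69 prior degrees of freedom, taken from the spread of all genes. Same-numbered sums come from the same suspension and library, which pairs them. The 15 genes of the rule stayed in the library sizes and out of the test. The comparison with cells outside the gate used the interaction of the same model. On simulated counts, 83% of 2-fold and 100% of 4-fold changes were recovered, with 6 false calls among 11956 genes. For the interaction it was 37% and 89%, with 3 false calls among 11502. The simulation used a chosen spread, not one estimated from these data, and changed only well-counted genes. It held no difference in cell depth or cell type between arms, so its rates do not carry over to the real comparison. DESeq2 1.42.0 and other cells, filters, scalings and depths were alternatives. Shares used scipy 1.17.1, and figures matplotlib 3.10.9.

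Members and lists were chosen with earlier results of these data known. Genes named are those of the rule, up to 4 called genes per list with the largest change at 10 CPM or more, and 10 each way outside the lists. These list and outside genes also had to move the same way in both replicates. Other list members were named after their values were seen, for their role. Some genes that the rule or the lists hold are not reported here.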

Additional observations from a re-analysis of the deposited data

Results flagged for a closer look

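For 747 of 11797 genes the cycling difference was not the same inside and outside the SOX2 or PAX6 gate, by the test of the difference itself. Among 110 genes named by rule, 11 passed. A larger (or less negative) value stood inside the gate for TPX2 (1.15), FOSB (2.87), JUND (0.92), SPARC (2.14) and COL5A1 (2.24), as log2 fold change inside minus outside. A smaller value stood inside for CDK4 (-1.36), FABP7 (-1.62), SHH (-2.26), NPM1 (-0.81), TRPM3 (-4.18) and LINGO2 (-1.81). FOSB fell by 3.42 on the log2 scale outside, against a value of -0.55 inside, and FABP7 stood at -1.74 inside and -0.12 outside. After thinning of the cells 1 of the 11, SPARC, was still called, and 8 had the same sign. The difference turned after thinning for CDK4 (0.58), FABP7 (0.25) and TRPM3 (3.56), without a call. In all counts, CDK4, NPM1 and TRPM3 had opposite signs inside and outside the gate, at -0.68 against 0.68, at -0.75 against 0.062 and at -3.89 against 0.29. Outside the gate the edgeR test called none of these (adjusted p = 0.170, 0.806 and 0.819), so no direction is read there.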

How the results depend on the processing

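Of 110 genes named by rule, 51 kept direction and call under every alternative that tested them, and so did 12 of 38 further list members picked for their role. Of these 38, CCND3, JAG1, ID1, NUMB and SLC1A3 passed the test but are not described, a choice made after their calls were seen to be lost under some alternatives. Counts of genes that rose and fell (1965 and 2192) became 1261 and 1259 with depth-matched cells, 819 and 895 after thinning, 647 and 589 in cells with 10% or more ribosomal RNA, 848 and 879 under 10%, 690 and 1013 in cells with no neuronal gene, and 720 and 865 with DESeq2. Of the thinned calls, 743 and 761 were shared. In cells with no neuronal gene, 75 of the genes named by rule kept direction and call, 28 lost the call and 1 turned. The replicate block mattered: without it 1286 and 1435 genes were called, and 410 in place of 747 between inside and outside the gate, where thinning left 16. Leaving out 1 sum gave 1061 to 1797 higher and 1344 to 1900 lower genes, with 1061 and 1435 without the non-cycling sum of replicate 2, and 1156 and 1344 without the cycling sum of replicate 2. Without a whole replicate no test is possible, since no residual degrees of freedom remain. All 110 kept their direction, which was fixed in advance, since the same direction in both replicates was a condition for naming them. The cycling share of 31.64% became 16.4% after thinning, 44.46% and 22.57% at 2 and 4 cycle genes, 32.79% at 1000 detected genes, 24.59% and 35.73% in cells with 10% or more and under 10% ribosomal RNA, 29.11% with no neuronal gene, 32.32% without the 5% of cells with most UMIs, and 31.18% to 32.09% by replicate. The median of cycling cells was 5571 UMIs after depth matching, against 5860. Directions turned after thinning for ELAVL2 (-0.082), LFNG (-0.10), SFRP2 (-0.053), FOSB (0.43), COL5A1 (0.11), KRT19 (0.071) and SLC1A3 (0.16); in cells with 10% or more ribosomal RNA for NOTCH3 (0.073), CTNNA2 (0.0091), PARD6B (-0.21), MCM5 (0.072) and ATF3 (-0.043); under 10% for PAX3 (-0.073), HHIP (-0.14), CDKN1C (0.056), ID4 (0.028) and ID1 (0.38); with SOX2 alone for KRT19 (0.011); with no neuronal gene for CHRM3 (0.0036). Without cells carrying markers of other types, an alternative chosen after seeing the data like the single left-out sums, FOSB (0.14) and COL5A1 (0.13) turned. HBZ, HBE1 and HBE4 turned with depth-matched cells (-0.11, -0.086, -0.0703), after thinning (-0.20, -0.23, -0.31), under 10% ribosomal RNA (-0.41, -0.52, -0.41), without the deepest cells (-0.26, -0.28, -0.23) and without other cell types (-0.17, -0.20, -0.15). Some alternatives hold fewer cells, and the cause of lost or turned calls was not tested. Depth limits genes of a few CPM, and 499 listed genes had no count.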
